A study of Oryza sativa Japonica Group with 2 samples.

Results

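The 435 regions described here are those called for NF-YC11 on the arms of chromosomes 8 and 9 of rice, out of 4193 regions that the authors called over the whole genome. They were chosen by position alone: the summit of each lay more than 3.0 Mb from the centromere, taken at 12.9 Mb on chromosome 8 and at 2.8 Mb on chromosome 9. Summits that shared a region were merged, so that the 435 regions carried 448 summits, and each region was given the values of its highest-fold summit. The members fell into 3 arms: 83 on the short arm of chromosome 8 (up to 9.9 Mb), 134 on its long arm (from 15.9 Mb) and 218 on the long arm of chromosome 9 (from 5.8 Mb). The short arm of chromosome 9 lies wholly within the limit and gave 0 members.

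The data came from chromatin immunoprecipitation and sequencing (ChIP-seq) of endosperm of Oryza sativa Japonica Group, collected 7 days after pollination. There was 1 library precipitated with an anti-FLAG antibody, which binds the FLAG tag on NF-YC11, and 1 input library of chromatin that was not precipitated. The labels do not say what drives the tagged gene, which cultivar was used, how many transgenic lines there were or whether the input came from tagged plants, and no untagged precipitation was analysed here. With 1 library a group there is no replicate error and no test between conditions, and every interval below covers counting error only.

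NF-Y is a transcription factor of 3 subunits, NF-YA, NF-YB and NF-YC. NF-YB and NF-YC pair through histone-like folds, and NF-YA then joins them and reads the CCAAT box, a short promoter element. Plants carry a family of genes for each subunit, and in cereals several NF-YB and NF-YC members are active in the endosperm, the tissue that fills with starch and storage protein. Chromosomes 8 and 9 of rice carry matching blocks of genes that descend from an ancient duplication of the whole genome, and chromosome 9 is strongly asymmetric, with a very short arm. Duplicated gene pairs were not analysed here, because no annotation of the build of the files was used, and members are given by position in the coordinates of the files, for which neither labels nor headers name a genome build.

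The long arm of chromosome 9 carried more regions per Mb than the arms of chromosome 8. Its 218 regions over 17.1 Mb gave 12.7 regions per Mb (95% Poisson interval 11.1 to 14.6). The long arm of chromosome 8 gave 10.7 per Mb (8.98 to 12.7) over 12.5 Mb. The short arm of chromosome 8 was the sparsest of the 3, at 8.38 per Mb (6.68 to 10.4) over 9.90 Mb. The chromosome 9 arm thus held 1.32 times the density of both chromosome 8 arms together (exact 95% interval 1.09 to 1.60), and 1.52 times that of the chromosome 8 short arm (1.18 to 1.98). Against the chromosome 8 long arm the ratio was 1.19 (0.954 to 1.49), an interval that includes 1, as does that of the 2 arms of chromosome 8 against each other, at 1.28 (0.965 to 1.70).

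These intervals treat regions as independent, and regions were clumped. Within arms, the number of regions per 1 Mb window had a variance of 1.88 times its mean. Widened by that factor, the interval of the ratio of chromosome 9 to chromosome 8 became 1.02 to 1.70. That of chromosome 9 to the chromosome 8 short arm became 1.07 to 2.15. Over all members the variance over mean was 1.54 in windows of 0.5 Mb and 2.05 in those of 1 Mb. In windows of 2 Mb it was 2.65, and the intervals of these values overlap. The widened intervals here and below all use 1.88, from 1 Mb windows. Arm by arm, the value in 1 Mb windows was 2.64 on the chromosome 8 short arm, 1.46 on its long arm and 1.88 on chromosome 9. A larger factor would widen the intervals further. At the 2.65 of 2 Mb windows, the interval of chromosome 9 to chromosome 8 would include 1. Whether the others that leave out 1 would then include it was not tested, except where given below. Lengths run to the first or last region of the chromosome, and assembly gaps and sequence to which reads cannot be mapped were not taken out of them. Their part in the differences was not tested.

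Among the stronger regions no difference in density was detectable. A −log10 q of 5 or more, q being the false discovery rate of the summit, was listed for 60 of the 435 members (13.8%), against 14.8% of all 4193 regions. They were spread as 16 on the chromosome 8 short arm, 17 on its long arm and 27 on chromosome 9. Their densities were 1.62 (0.924 to 2.62), 1.36 (0.792 to 2.18) and 1.58 (1.04 to 2.30) regions per Mb, with intervals that overlap throughout. The ratio of chromosome 9 to chromosome 8 among them was 1.07 (0.620 to 1.84), so that a difference of the size seen over all regions could be missed at this number. The median input background at the called regions was 8.19 ChIP-scaled fragments on the chromosome 8 short arm, 7.45 on its long arm and 8.19 on chromosome 9. The background where no region was called was not analysed here, and its part in the difference was not tested.

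**Figure D1:**
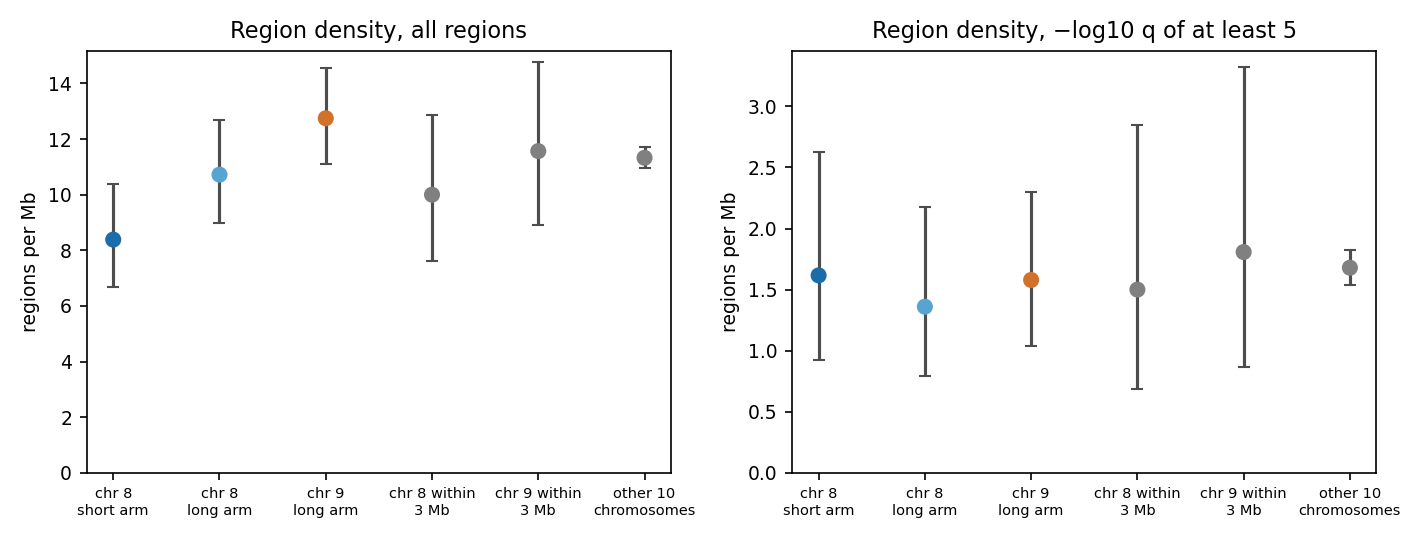
Regions per Mb (vertical axes, from 0) in the 3 arms, in the parts of chromosomes 8 and 9 within 3 Mb of the centromere position and on the other 10 chromosomes, for all regions (left) and for those whose −log10 q was 5 or more (right); points are densities and bars 95% Poisson intervals. The chromosome 9 long arm stands at 12.7 and the chromosome 8 short arm at 8.38 on the left, while on the right the arms lie between 1.36 and 1.62 with overlapping bars.

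Compared with the rest of the genome, the 3 arms together were of ordinary density. They held 11.0 regions per Mb against 11.3 (11.0 to 11.7) over the whole spans of the other 10 chromosomes, a ratio of 0.972 (0.878 to 1.07). The chromosome 8 short arm stood at 0.740 times their density (0.588 to 0.920, or 0.549 to 0.998 when widened for clumping). That widening used the factor pooled within the 3 arms. In 1 Mb windows the variance over mean was 2.64 on the short arm alone and 2.77 on the other 10 chromosomes. On the latter it was 1.66 without high background. Whether the interval would leave out 1 at the larger values was not tested. The chromosome 9 long arm stood at 1.13 times the density of the other 10 chromosomes (0.977 to 1.29). When regions with an input background above 40 fragments were left out on both sides, the ratio of the short arm was 0.762 and that of chromosome 9 was 1.17, with widened intervals of 0.564 to 1.03 and 0.967 to 1.41 that both include 1. At a −log10 q of 5 or more the ratios were 0.963 (0.546 to 1.58) and 0.940 (0.614 to 1.38). The other chromosomes enter with their centromeres, so this is not a comparison of arms with arms.

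On each of the 3 arms more regions were called in the segment farther from the centromere, when each arm was divided at its midpoint. On the chromosome 9 long arm, the distal segment held 135 regions, or 15.8 per Mb (13.2 to 18.7), and the proximal segment 83, or 9.71 per Mb (7.73 to 12.0). The distal segment was thus 1.63 times as dense (1.23 to 2.16, or 1.12 to 2.37 when widened for clumping). On the chromosome 8 short arm, 53 distal regions stood against 30 proximal ones, a ratio of 1.77 (1.11 to 2.86). Widened for clumping, this interval ran from 0.955 to 3.27 and included 1. The chromosome 8 long arm had 75 distal and 59 proximal regions, a ratio of 1.27 (0.892 to 1.82), which includes 1 without widening. The segments were compared after the positions had been seen. Among members whose −log10 q was 5 or more, the distal and proximal segments held 9 and 7 regions on the chromosome 8 short arm, 9 and 8 on its long arm and 15 and 12 on chromosome 9.

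For the height and width of the peaks the segments overlapped. On chromosome 9, the folds had a median of 2.79 (95% interval 2.61 to 2.86) in the distal segment and 2.72 (2.58 to 2.83) in the proximal segment. The median widths there were 191 bp (178 to 199) and 182 bp (167 to 193). The intervals of the segments overlapped for fold, pileup and width on each of the 3 arms, which does not show that the segments are equal.

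**Figure D2:**
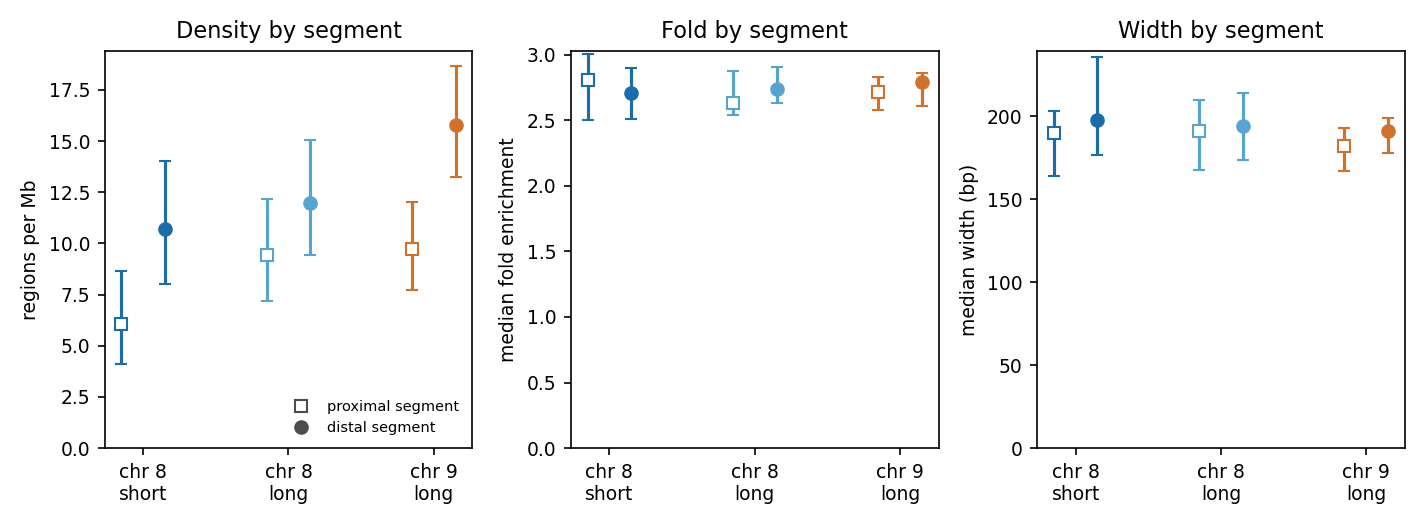
Proximal (open squares) and distal (filled circles) segments of the 3 arms, with regions per Mb and 95% Poisson intervals (left), median fold enrichment (middle) and median width in bp (right), both with 95% intervals of the median; all vertical axes start at 0. The distal segment is denser on each arm, by 1.77, 1.27 and 1.63 times, while medians of fold and width overlap.

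Counts per window gave the finer pattern. The densest full 1 Mb window of the members was 14 to 15 Mb on chromosome 9, with 21 regions, 6 of them with a −log10 q of 5 or more. Next on this arm was 17 to 18 Mb with 20 regions. Its sparsest windows were 11 to 12 Mb with 6 regions and 8 to 9 Mb with 7. On the chromosome 8 long arm the densest windows were 26 to 27 Mb with 19 regions and 23 to 24 Mb with 15. The sparsest there were 16 to 17 Mb with 5 and 18 to 19 Mb with 6, both near the centromere end of the arm. The chromosome 8 short arm had 15 regions in each of its densest windows, 0 to 1 Mb and 3 to 4 Mb. It then thinned out to 3 regions from 6 to 7 Mb and 2 from 7 to 8 Mb, and recovered to 10 from 8 to 9 Mb. Over the 37 full windows of the members the number ran from 2 to 21 with a median of 10, and 10 windows held at least 15 regions. The 308 windows of the other 10 chromosomes, centromeres included, ran from 0 to 75 with a median of 11, and 63 held at least 15.

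**Figure D3:**
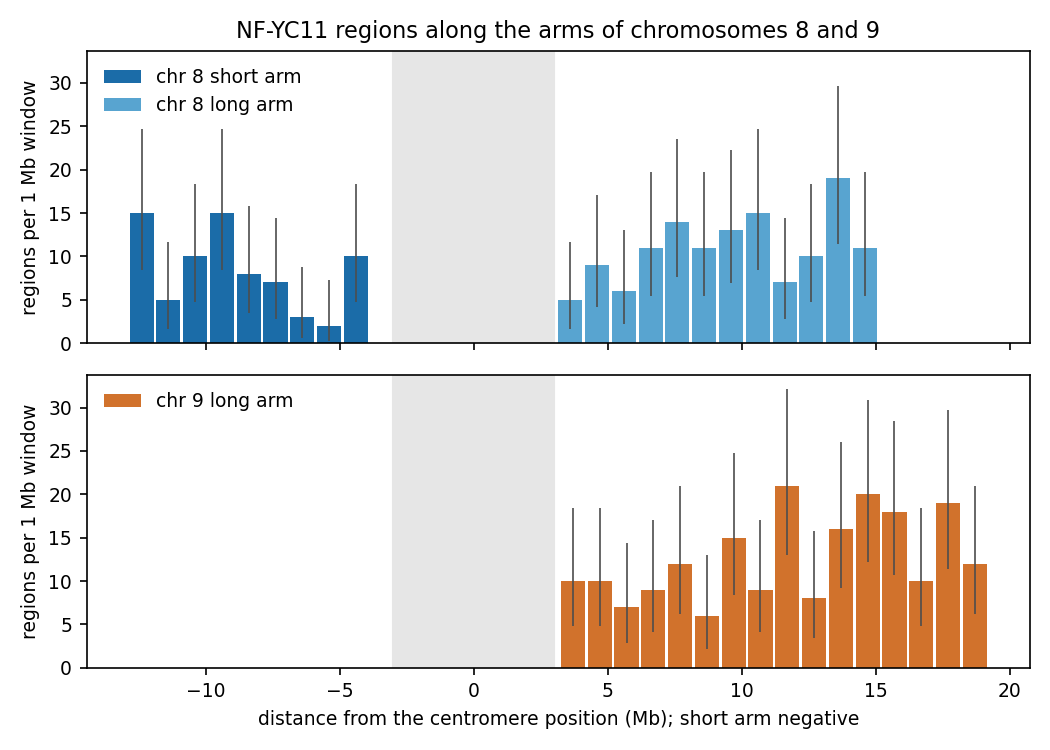
Number of regions in each full 1 Mb window (vertical axis) against the distance of the window's centre from the centromere position in Mb (horizontal axis), for chromosome 8 (top) and chromosome 9 (bottom); bars are counts, thin lines 95% Poisson intervals, and the grey band is the part within 3 Mb that was left out. Counts range from 2 on the chromosome 8 short arm to 21 on chromosome 9.

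The longest stretch without a region in the members was 765 kb on the chromosome 8 short arm, from 6471893 to 7236698. Chromosome 9 had its longest stretch, 514 kb, from 11220615 to 11735109, and the chromosome 8 long arm 490 kb, from 16153810 to 16643778. Stretches over 500 kb numbered 3 of 82, 0 of 133 and 1 of 217 on the chromosome 8 short arm, its long arm and chromosome 9. On the other 10 chromosomes, centromeres included, they numbered 26 of 3619, and the longest was 1208 kb. The median distance between neighbouring regions was 71.7 kb, 62.6 kb and 51.3 kb in the order of the 3 arms above, and 58.6 kb on the other 10 chromosomes.

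Peak height overlapped between the 3 arms. The median pileup, which counts the ChIP fragments over the summit, was 26 (95% interval 23 to 27) on the chromosome 8 short arm, 24 (22 to 25) on its long arm and 24 (23 to 25) on chromosome 9. The fold of ChIP over input background had medians of 2.72 (2.56 to 2.90), 2.71 (2.62 to 2.81) and 2.73 (2.64 to 2.83). Over the 435 members the median fold was 2.72 (2.67 to 2.79), and it was 2.72 (2.71 to 2.73) on the other 10 chromosomes. As in the whole list, most members were modest peaks: 296 (68.0%, against 64.9% of all regions) lay from 2 to under 3-fold and 114 (26.2%, against 26.9%) from 3 to under 4-fold. A q above 0.01 was listed for 117 members (26.9%), against 26.3% of all regions.

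The chromosome 8 short arm held 9 of the 18 strongest peaks, although it had the fewest regions. A fold of at least 4 was reached by 18 of the 435 members (4.14%), against 3.63% of all regions. The 9 on the chromosome 8 short arm are 10.8% of its regions (exact 95% binomial interval 5.08 to 19.6). The long arm had 4 of 134, or 2.99% (0.819 to 7.47), and chromosome 9 had 5 of 218, or 2.29% (0.749 to 5.27). The interval of the short arm does not include the 3.63%, while those of the other arms do. Because 3 of the 9 stood side by side, the share was also taken without that cluster. It was then 6 of 80, or 7.50% (2.80 to 15.6), whose interval includes the 3.63%.

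That cluster lies at 2.08 Mb and is the strongest of the members. The region from 2079031 to 2079323 had 123 ChIP fragments (95% Poisson interval 102 to 147) over an input background of 10.4, a fold of 10.9. Its neighbour from 2080038 to 2080285 had 65 fragments (50.2 to 82.8) over 5.64, a fold of 9.95. The third, from 2080899 to 2081204, had 38 fragments (26.9 to 52.2) over 5.79, a fold of 5.74. Height fell from one region to the next toward higher coordinates, and the next region continued the series, from 2082550 to 2082928, with 18 fragments and a fold of 2.90. The summits stood 972, 935 and 1639 bp apart. This was the one run of 4 members with less than 5 kb between neighbours; of the other runs, 2 held 3 regions and 13 held 2.

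The other 6 strong regions of the chromosome 8 short arm were scattered along it. The region from 7934022 to 7934171 had 29 ChIP fragments (19.4 to 41.6) over an input background of 5.21, a fold of 4.83. It is 1 of the 2 regions in the sparsest window of the arm. The region from 9757463 to 9757631 had 27 fragments (17.8 to 39.3) over 5.21, a fold of 4.51. In the interval from 5 to 6 Mb, 3 of 7 regions exceeded 4-fold, at 4.31, 4.46 and 4.12. They were singled out after their values were seen, with summits at 5282443, 5414964 and 5927685 and pileups of 29, 30 and 42 fragments. The last of the 9, at 147895 to 148449, held 2 summits, the higher at 4.16-fold.

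On the chromosome 8 long arm no peak reached the folds of the short-arm cluster. Outside that cluster the highest fold of the short arm was 4.83. The highest fold of the long arm, 4.80, was found from 24896285 to 24896446. That region had 36 ChIP fragments (25.2 to 49.8) over an input background of 6.70. The next, from 25889364 to 25889514, had 27 fragments (17.8 to 39.3) over 5.29, a fold of 4.45. A weaker region stood 0.736 kb before it, with 24 fragments and a fold of 3.25. Further strong regions were 16811645 to 16811807, with 29 fragments and 4.22-fold, and 27040279 to 27040466, with 28 fragments and 4.17-fold. The fifth, 26102876 to 26103026, stood at 3.88-fold with 26 fragments. The intervals on the folds of these 5 regions overlap, from 2.59 at the lowest bound to 6.60 at the highest, so their order cannot be told from counting error.

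On chromosome 9 the region of highest fold was 14650147 to 14650320. It had 37 ChIP fragments (26.1 to 51.0) over an input background of 5.35, a fold of 5.99 (4.26 to 8.19), and it lies in the densest window of the arm. The region from 10493609 to 10493814 had the same 37 fragments over a higher background of 7.45, which gave 4.50-fold (3.20 to 6.16). Then followed 17888370 to 17888593 with 32 fragments and 4.29-fold, 11220419 to 11220614 with 27 fragments and 4.21-fold, and 6390797 to 6390971 with 34 fragments and 4.04-fold. The region at 11220419 borders the longest empty stretch of the arm. The interval of the highest region overlaps those of the other 4, so their order cannot be told from counting error either.

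High pileup did not always go with high fold. Input background above 40 fragments was found at 3 of the 435 members (0.690%, exact interval 0.142 to 2.0), against 4.03% of all regions, and each arm held 1 of them. At 8, 1074 to 1224, the first region of the chromosome, 142 ChIP fragments stood over an input background of 92.3, a fold of 1.53. The region at 8, 19196760 to 19196951, had the largest pileup of all members, 187 fragments, over 101, a fold of 1.84. At 9, 20294308 to 20294471, 134 fragments stood over 88.6, a fold of 1.51. These 3 had the lowest folds of the 435, and both libraries were high there. In the part of chromosome 9 within 3 Mb of the centromere position, 15 of 64 regions (23.4%, 13.8 to 35.7) had such a background. In that part of chromosome 8 it was 2 of 60 (3.33%, 0.406 to 11.5).

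Below that level, the next highest pileups of chromosome 9 and of the chromosome 8 long arm had folds of 2.35 to 3.41. On chromosome 9, regions at 10626068 to 10626258 and 7836039 to 7836193 had 59 and 57 ChIP fragments over 24.6 and 22.3, with folds of 2.35 and 2.49. The chromosome 8 long arm had 43 fragments at each of 2 regions. One of them, 19124326 to 19124611, stood over a background of 11.9 with a fold of 3.41, and the other, 27777833 to 27778188, over 15.6 with 2.64. At the 323 members with a background of up to 10 fragments the median fold was 2.84, and at the 107 with 10 to 20 fragments it was 2.43. The lowest fold that was called was 2.12 in the first range and 1.91 in the second, and the part of the calling threshold in the lower median was not tested.

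**Figure D4:**
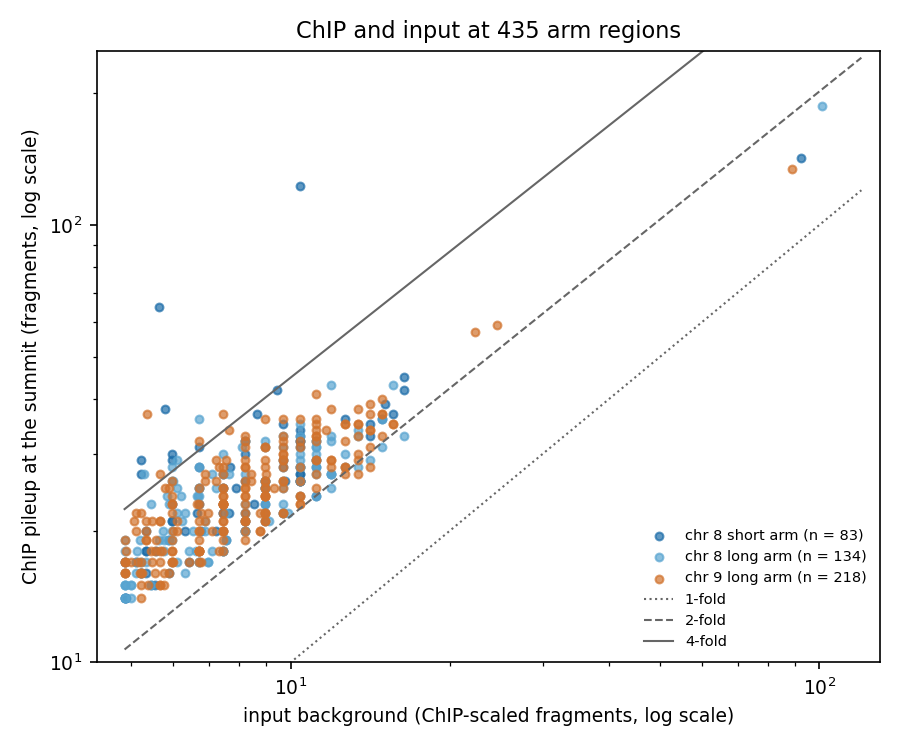
ChIP pileup at the summit (vertical, fragments, log scale) against input background (horizontal, ChIP-scaled fragments, log scale) for the 435 members, coloured by arm; lines mark folds of 1, 2 and 4. Most points lie between the 2-fold and 4-fold lines, the chromosome 8 cluster stands above with 123 and 65 fragments, and 3 points at the right, 1 per arm, have backgrounds of 88.6 to 101 and folds under 2.

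Peaks were narrow in all arms. The median width was 196 bp (95% interval of the median 181 to 211) on the chromosome 8 short arm, 192 bp (178 to 206) on its long arm and 186 bp (178 to 193) on chromosome 9, against 191 bp (189 to 194) on the other 10 chromosomes. The narrowest width of the list, 149 bp, was found at 36 members (8.28%, against 8.63% of all regions), and 8 members (1.84%, against 2.74%) were at least 400 bp wide. The widest were 8, 20046524 to 20047232 (709 bp), 9, 12123582 to 12124150 (569 bp) and 8, 147895 to 148449 (555 bp). In the same order, these 3 had 26, 17 and 31 ChIP fragments and folds of 3.86, 2.90 and 4.16. The strongest region, at 2.08 Mb of chromosome 8, was 293 bp wide. Across the 435 regions, which share both libraries, Spearman's rho of pileup and width was −0.0846. The relation of width to fold was not analysed here.

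Regions with several summits were few on the long arm of chromosome 9. They numbered 13 of 435 members (2.99%, exact interval 1.60 to 5.06), against 5.32% of all regions, and each held 2 summits. The chromosome 8 arms had 11 of 217 (5.07%, 2.56 to 8.89) and the chromosome 9 long arm had 2 of 218 (0.917%, 0.111 to 3.27). The interval of the chromosome 9 arm lies below the 5.32% and overlaps that of the chromosome 8 arms. This does not hold for chromosome 9 as a whole. Within 3 Mb of its centromere position 10 of 64 regions (15.6%, 7.76 to 26.9) had several summits, against 1 of 60 on chromosome 8 (1.67%, 0.0422 to 8.94). All 4 of the chromosome 8 short arm lay within the first 636 kb of the chromosome, where 9 of its 83 regions were, and their positions were noticed after the values were seen. The 2 on chromosome 9 were 14540028 to 14540363, with summits of 20 and 24 ChIP fragments, and 22719158 to 22719500, with 23 and 26. In both the summits were 187 bp apart, which is also the median over the 13 regions (81 to 261 bp). The more enriched summit of the first was the one with fewer fragments, at 2.96-fold against 2.34, because its background was lower. In the second the folds were 2.61 and 3.43.

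Close neighbours were few among the members, and the gap to regions elsewhere shrank without high background. Another region lay within 5 kb of 36 of the 435 members (8.28%, exact interval 5.86 to 11.3), against 14.5% (13.4 to 15.7) on the other 10 chromosomes. Without regions of high input background on either side, the shares were 8.33% (5.90 to 11.4) and 11.9% (10.8 to 13.0), and these intervals overlap. The other chromosomes enter with their centromeres, so this is not a comparison of arms with arms. With all regions counted, the share was 22.6% (15.6 to 31.0) within 3 Mb of the centromere positions of chromosomes 8 and 9. By arm, the shares were 7.23% on the chromosome 8 short arm, 9.70% on its long arm and 7.80% on chromosome 9. The closest neighbours were 0.204 kb apart, at 20254838 to 20255023 and 20255228 to 20255434 on chromosome 8, with folds of 2.12 and 2.12. On chromosome 9 the closest pair was 0.210 kb apart, at 18155068 to 18155231 and 18155442 to 18155648, with folds of 2.61 and 1.94. Both of these closest pairs were weak, unlike the run at 2.08 Mb.

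The peaks next to the limit of 3.0 Mb were of ordinary height on both sides. On the chromosome 8 short arm the last region inside had a fold of 2.93 and the first one outside 3.38. On its long arm the values were 2.18 inside and 2.99 outside, and on chromosome 9 they were 3.38 inside and 2.43 outside. Their pileups ran from 20 to 25 ChIP fragments.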

How the data were processed

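One ChIP and 1 input library of rice endosperm were compared by the authors. Per the submitters' processing notes, the tools were BWA and MACS2; no label or header gives versions, genome build or duplicate handling. The deposited pileup is a signal, the whole number of ChIP fragments over the summit. The deposited fold enrichment is a ratio of ChIP to local input, per the file headers. The −log10 p and −log10 q of the deposited table were identified by order and values, since both header cells are damaged; all 4445 summits matched the deposited summit list with −log10 q values differing by 0. Library depth is unknown; at the lowest background of 4.85, the smallest pileup called in the members was 14 fragments (2.56-fold).

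Rows with the same start and end were merged. Input background was recovered as (pileup + 1) / fold − 1; a Poisson tail recomputed from it differed from the deposited −log10 p by at most 0.00016 in the members. Python 3.11.15 with scipy 1.17.1 gave exact 95% Poisson, binomial (Clopper-Pearson) and conditional ratio intervals; intervals of medians come from binomial order statistics and treat regions as independent. Intervals of folds come from the Poisson interval of the pileup and take the input background as known without error, so they are too narrow for the ratio. The interval code was tested on simulated data. No test was run. Named regions are, per arm, the 5 of highest fold and 3 of highest pileup, plus the 3 widest, the 2 densest and 2 sparsest windows, the longest stretches and those next to the limit. Members, lists and thresholds were chosen with earlier results of these data known. Alternatives were a −log10 q of at least 5, no background above 40, limits of 2 and 4 Mb, summits as units, other window sizes and a neighbour distance of 20 kb.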

Additional observations from a re-analysis of the deposited data

How the results depend on the processing

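At a −log10 q of at least 5, 60 members were left of 435. Their densities were then 1.62, 1.36 and 1.58 regions per Mb on the chromosome 8 short arm, its long arm and chromosome 9, and the ratio of chromosome 9 to chromosome 8 fell from 1.32 to 1.07. The median fold became 3.66, the median pileup 32, the share with a neighbour within 5 kb 5%, the variance over mean of the windows 1.17 in place of 2.05, and the longest stretch 2556 kb; fewer and stronger regions enter by construction. With neighbours counted within 20 kb the share was 37.7%, which follows from the wider distance. Of 49 values under such settings, the other 38 lay within the interval of the value they were set against or, for the number of members, within 1.5 times. These include leaving out input backgrounds above 40, limits of 2 and 4 Mb (466 and 412 members) and summits as units. Under them the ratio of chromosome 9 to chromosome 8 ran from 1.26 to 1.32. The lower bounds, the lowest of them 1.04, were above 1 but cover counting error only. For the limits of 2 and 4 Mb and for summits as units no interval widened for clumping was computed. Whether those intervals would include 1 is therefore not known. Widening the interval of the main ratio for clumping was added after the data were seen. No paired analysis was possible because each group has 1 library, so leaving out a replicate was not possible either. Library depth is unknown; at the lowest background no fold under 2.56 was called in the members.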

Other observations

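The summit lay close to the middle of most members. Its median distance from the centre of the region was 19.5 bp on the chromosome 8 short arm, 30.5 bp on its long arm and 20 bp on chromosome 9, and 22.5 bp on the other 10 chromosomes. The lowest background of the list, 4.85 fragments, was found at 18 members (4.14%, against 4.15% of all regions), whose pileups ran from 14 to 19 ChIP fragments. At members with several summits the region was a median of 343 bp wide, against 187 bp at the 422 with a single summit. A region with 2 summits has to span both, so a greater width follows in part by construction. From 6 to 8 Mb of the chromosome 8 short arm there were 5 regions in all, and the 64 regions of chromosome 9 within 3 Mb of the centromere position had a median pileup of 28 ChIP fragments (24 to 34) with a median fold of 2.49 (2.25 to 2.81).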
